A study of Saccharomyces cerevisiae with 48 samples.

Results

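The 43 pheromone-treated segregants of a budding yeast cross were divided by their level of DSE1, a daughter-cell-specific gene, and all other genes were compared between the groups. The groups were thus chosen by measured DSE1 levels alone. Each segregant was placed with the parent, treated HS959 or treated S96, whose DSE1 level was nearer to its own. This gave 16 DSE1-low segregants on the HS959 side and 27 DSE1-high segregants on the S96 side, 43 of the 48 arrays in all. A level is the log2 intensity of a gene's probe minus the 75th percentile of its array, and a difference is the mean level of the DSE1-low group minus that of the DSE1-high group, on the same log2 scale.

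All strains were MATa haploids, the mating type that responds to alpha factor, the peptide pheromone secreted by MATalpha cells. The DSE1-low and DSE1-high segregants descend from the cross YJM789 X S96, and each was exposed to 5 µM alpha factor for 30 min. HS959 and S96 are labelled as parental lines, and each was measured once with and once without alpha factor; how HS959 relates to YJM789 is not given in the sources used here. Segregant SEG8, a DSE1-high strain, was also measured without alpha factor. Each segregant is 1 strain on 1 array, and no label names repeat cultures, so the p-values rest on the scatter between arrays, which may be technical in part.

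When a budding yeast cell divides, the daughter stays joined to its mother by a septum of chitin and glucan. Genes for enzymes that digest the septum from the daughter's side are then switched on, in a program that depends on the kinase Cbk1 and its partner Mob2 in the RAM network. Among these are the chitinase gene CTS1 and the glucanase-related genes SCW11 and DSE4. Amn1, made in daughters, antagonises the mitotic exit network, and alleles of AMN1 are known from other crosses with the S288c background to affect daughter-cell genes and clumping. The AMN1 genotype of the segregants was not measured here.

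The DSE1 levels that made the groups lay far apart. DSE1 had a lowest level of -7.79, a median of -6.35 and a highest of -4.17 in the DSE1-low segregants, against 1.34, 1.66 and 2.11 in the DSE1-high segregants. The treated parents stood at -5.75 in HS959 and 1.76 in S96. The members nearest the dividing line of -2.0 were SEG42 at -4.17 on the low side and SEG10 at 1.34 on the high side, a gap of 5.51, and 0 segregants had a level between -3.25 and -0.75, the centre of the interval between the parents. The mean was -6.17 ± 1.15 in the DSE1-low group (SD, n = 16) and 1.69 ± 0.19 in the DSE1-high group (SD, n = 27), so the low group was the more scattered of the pair on the log2 scale. These values chose the groups and carry no test. DSE1 was well above background on all 48 arrays. Nearness to the parents in DSE2 instead of DSE1 placed 43 of 43 segregants in the same groups.

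The arrays lay on 6 slides, each with both groups, but slide 3 held 6 DSE1-low and 2 DSE1-high arrays while slide 4 held 1 and 7. Between 94.0% and 99.7% of gene spots were well above background on DSE1-low arrays and between 96.7% and 99.7% on DSE1-high arrays, with the lowest share on SEG14, a DSE1-low array on slide 3. Genes of 1 chromosome were shifted together in 3 segregants. The median gene of chromosome XII stood 0.79 above the segregant median in SEG9 and 0.80 above it in SEG42, both DSE1-low, while the other segregants lay between -0.15 and 0.06. The median gene of chromosome III stood at -0.95 in SEG45, which is DSE1-high. In bulk cultures, fewer cells of a type and less RNA per cell cannot be told apart, and with 1 probe per gene an altered probe target cannot be told apart from an altered RNA level.

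The main pattern was a drop of the daughter-cell genes together. Of 6229 genes tested, 197 (3.16%) passed an adjusted p of 0.05 in limma with Benjamini-Hochberg adjustment over all of them. Of these, 148 (2.38%) were lower and 49 (0.787%) higher in the DSE1-low segregants. At least 2-fold differences were found for 26 genes that were lower and for 1 that was higher. All 10 tested members of the daughter-cell list were lower, with a median difference of -1.59 against -0.005 over all tested genes. The list had been chosen with results of these data known, so its direction is not independent evidence. The levels of the 2 groups did not overlap at all for 10 genes (0.161% of those tested), and 7 of these were daughter-cell genes: DSE2, SCW11, BUD9, CTS1, DSE4, DSE3 and EGT2. The other 3 were SUN4, ISR1 and YER152C, the last of which is named here after its values were seen.

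**Figure D1:**
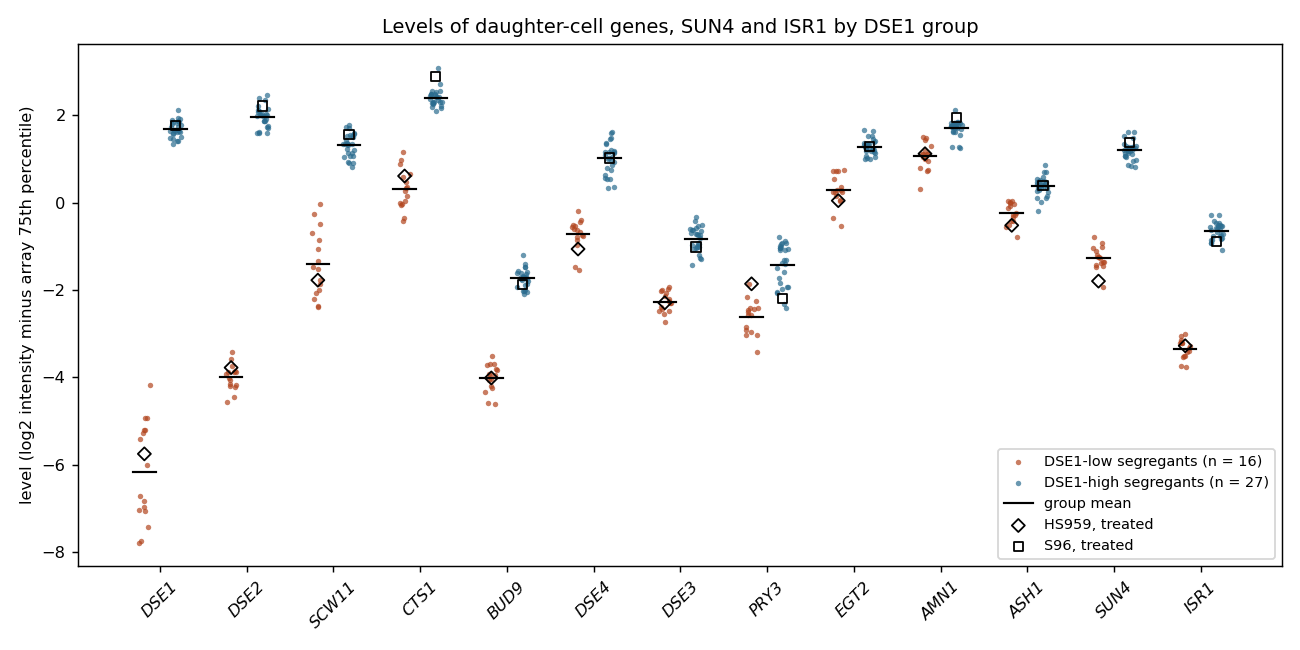
Level of each gene on every treated segregant array (points, log2 intensity minus the array's 75th percentile), with the DSE1-low group left of the DSE1-high group, group means as bars and the treated parents as open symbols. DSE1 chose the groups; DSE2, SCW11, CTS1, BUD9, DSE4, DSE3, EGT2, SUN4 and ISR1 show no overlap between the groups, and PRY3, AMN1 and ASH1 overlap at the edges.

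The genes for wall-digesting and secreted separation proteins were lower, DSE2 and SCW11 by the most. DSE2, which encodes a secreted daughter-specific protein related to glucanases, had a lowest level of -4.56, a median of -3.97 and a highest of -3.43 in DSE1-low segregants, against 1.58, 1.99 and 2.46 in DSE1-high segregants. Every DSE1-low segregant lay below every DSE1-high segregant, and the difference was -5.97 ± 0.08 (SE; limma adjusted p 4.03e-43), a fold of 62.5. DSE2 levels were tight in both groups, at -4.00 ± 0.29 (SD, n = 16) and 1.96 ± 0.24 (SD, n = 27), unlike those of DSE1 in the low group. SCW11, a wall glucanase-like gene, had -2.39, -1.50 and -0.03 as lowest, median and highest level in DSE1-low segregants, against 0.82, 1.34 and 1.78 in DSE1-high segregants. Its difference was -2.71 ± 0.16 (SE; limma adjusted p 5.75e-18), and it was the most scattered tested daughter-cell gene of the low group, with an SD of 0.76 against 0.27 in the high group. SEG18 came closest to the high group.

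CTS1, the endochitinase that cuts the primary septum, had a lowest level of -0.41, a median of 0.31 and a highest of 1.16 in DSE1-low segregants, against 2.09, 2.41 and 3.09 in DSE1-high segregants. The difference was -2.09 ± 0.10 (SE; limma adjusted p 3.05e-21), about 4.25-fold. Although CTS1 lies on chromosome XII, its difference was -2.16 without SEG9 and SEG42. DSE4, an endo-glucanase also called ENG1, had -1.54, -0.64 and -0.19 in DSE1-low segregants, against 0.35, 1.04 and 1.61 in DSE1-high segregants. No DSE1-low level reached the DSE1-high range, and the difference was -1.74 ± 0.11 (SE; limma adjusted p 1.50e-16). EGT2, a wall protein of cell separation, had -0.55, 0.27 and 0.74 in DSE1-low segregants, against 0.99, 1.24 and 1.66 in DSE1-high segregants. The gap between its groups was narrow, and the difference was -1.0 ± 0.08 (SE; limma adjusted p 3.06e-12).

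Daughter-cell genes with other roles were also lower. BUD9, a landmark protein for the choice of bud site, had -4.61, -3.95 and -3.52 as lowest, median and highest level in DSE1-low segregants, against -2.09, -1.72 and -1.20 in DSE1-high segregants. The groups stayed apart, with a difference of -2.28 ± 0.08 (SE; limma adjusted p 2.42e-26). DSE3, a daughter-specific gene whose product is found at the bud neck, had -2.74, -2.27 and -1.93 in DSE1-low segregants, against -1.42, -0.75 and -0.33 in DSE1-high segregants. Its difference was -1.43 ± 0.08 (SE; limma adjusted p 6.30e-18), again without overlap.

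The groups overlapped in 3 daughter-cell genes. PRY3, a wall-associated protein, had -3.42, -2.54 and -1.86 in DSE1-low segregants, against -2.42, -1.32 and -0.79 in DSE1-high segregants, with a difference of -1.19 ± 0.14 (SE; limma adjusted p 3.89e-08). PRY3 was the 1 member whose treated parents ran the other way, at -1.86 in HS959 and -2.19 in S96. AMN1, the mitotic exit antagonist, had 0.30, 1.11 and 1.49 in DSE1-low segregants, against 1.25, 1.76 and 2.11 in DSE1-high segregants. Its drop was smaller than that of the wall genes, at -0.65 ± 0.08 (SE; limma adjusted p 2.53e-08). ASH1, which represses HO in daughters, had -0.79, -0.25 and 0.05 in DSE1-low segregants, against -0.19, 0.40 and 0.85 in DSE1-high segregants. Its difference was -0.63 ± 0.07 (SE; limma adjusted p 2.53e-08), the smallest of the list.

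Seen by strain, most segregants were placed the same way by most of the list. Each tested daughter-cell gene was used in turn to place a segregant nearer HS959 or S96. In the DSE1-low group 10 segregants fell on the HS959 side for 9 of the 10 genes, 3 for 8 and 3 for 7. In the DSE1-high group 4 segregants fell on the S96 side for all 10 genes, 20 for 9, 2 for 8 and 1 for 7. PRY3 placed 5 of 43 segregants on the same side as DSE1, its parents standing in the reversed order. By contrast DSE2, BUD9, CTS1, DSE4 and DSE3 each placed 43 of 43, SCW11 42, AMN1 40, EGT2 39 and ASH1 37.

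The group difference of each tested daughter-cell gene was negative within each of the 6 slides. It ranged from -6.07 to -5.86 for DSE2, from -3.64 to -2.28 for SCW11, from -2.43 to -1.39 for CTS1 and from -0.84 to -0.54 for AMN1. Slides 2 and 4 held 1 DSE1-low array each, and both ends of the SCW11 and CTS1 ranges came from these slides. On slide 2 that array was SEG9, which was shifted on chromosome XII, where CTS1 lies. In all fits over more than 1 slide, 10 of 10 list members stayed lower, although some of these fits repeat the main fit, as given below. Fitted within single slides, which leaves 4 to 8 arrays, the list kept between 1 and 5 calls.

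Within the groups the daughter-cell genes followed DSE1 to different degrees. These correlations are given as a description with no test, since the DSE1 level also made the groups and the list was chosen with the data known. In the DSE1-high group (n = 27), Pearson r with DSE1 was 0.64 for AMN1, 0.66 for CTS1 and 0.54 for DSE2, and Spearman rho was 0.54, 0.58 and 0.58 for these genes. Without SEG3 and SEG10, the segregants farthest from the DSE1 median, r was 0.69 for AMN1, 0.54 for CTS1 and 0.39 for DSE2. With slide means removed, r was 0.65 for AMN1, 0.62 for CTS1 and 0.72 for DSE2. On the 2 slides with at least 6 DSE1-high arrays, r lay between 0.53 and 0.63 for AMN1, between 0.43 and 0.59 for CTS1 and between 0.27 and 0.86 for DSE2. The other 7 genes had r between -0.33 and 0.46 in the DSE1-high group. With slide means removed, ASH1 had an r of 0.65 there, and the rest of these genes lay between -0.32 for BUD9 and 0.42 for EGT2. In the DSE1-low group (n = 16), r ran from -0.54 for DSE4 to 0.46 for CTS1 over the 10 genes. With slide means removed, it ran from -0.45 for DSE4 to 0.77 for DSE2 in that group.

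Genes of the RAM network showed no comparable difference. Of 9 tested genes of the network and its partners, 0 passed in limma. As 3.16% of all tested genes passed, a count of 0 in so short a list says little. Of the 9 genes, 1 (MOB2) had an unadjusted limma p under 0.05. Their differences lay between -0.04 and 0.14, and their median was 0.01. MOB2, the Cbk1 partner, differed by 0.14 ± 0.05 (SE; limma adjusted p 0.145) and the kinase gene CBK1 by 0.04 ± 0.05 (SE; limma adjusted p 0.786). SWI5, a transcription factor gene of the M/G1 transition, differed by 0.14 ± 0.12 (SE; limma adjusted p 0.608). The RNA-binding protein genes MPT5 and SSD1 differed by 0.12 and 0.01. The remaining RAM genes HYM1, TAO3, KIC1 and SOG2 lay between -0.04 and 0.00. These are RNA levels, and where the proteins were or how active they were was not measured.

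Outside the list, ISR1 and SUN4 also separated the groups without overlap. ISR1, a predicted protein kinase, had -3.75, -3.31 and -3.01 as lowest, median and highest level in DSE1-low segregants, against -1.08, -0.63 and -0.29 in DSE1-high segregants. The groups did not overlap, and the difference of -2.70 ± 0.07 (SE; limma adjusted p 7.28e-33) had the second smallest p of all tested genes. SUN4, a glucanase-related wall gene of the SUN family that acts in septation, had -1.94, -1.25 and -0.80 in DSE1-low segregants, against 0.81, 1.19 and 1.62 in DSE1-high segregants. Its difference was -2.45 ± 0.07 (SE; limma adjusted p 3.84e-29). SUN4 alone passed of the 20 genes in a list of glucanases and wall remodelling (5%, against 3.16% of all tested genes). That list holds none of the daughter-cell genes, such as DSE2, SCW11, CTS1 and DSE4, and its median was 0.03. HMS2, a gene related to heat shock factors, had -3.78, -3.30 and -2.72 in DSE1-low segregants, against -3.06, -1.88 and -1.02 in DSE1-high segregants. The groups overlapped slightly, and the difference was -1.46 ± 0.13 (SE; limma adjusted p 2.32e-11).

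The other genes among the 12 largest drops were more scattered. FRE7, a metal reductase gene, fell by 1.57 (limma adjusted p 0.00546). Within slides its difference ranged from -3.90 on slide 2, where SEG9 was the only DSE1-low array, to -0.03 on slide 3. The alpha-pheromone gene MF(ALPHA)2 fell by 1.57 (limma adjusted p 0.0183), with a range of -4.59 to -0.05 in DSE1-low segregants and of -4.06 to 1.39 in DSE1-high segregants, whereas its treated parents differed by 1.67 in the opposite direction. PCH2, which encodes a meiotic checkpoint ATPase, fell by 1.64 (limma adjusted p 2.17e-05) but was well above background on 13 of 16 DSE1-low arrays. YBR197C fell by 1.48 (limma adjusted p 2.51e-09).

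**Figure D2:**
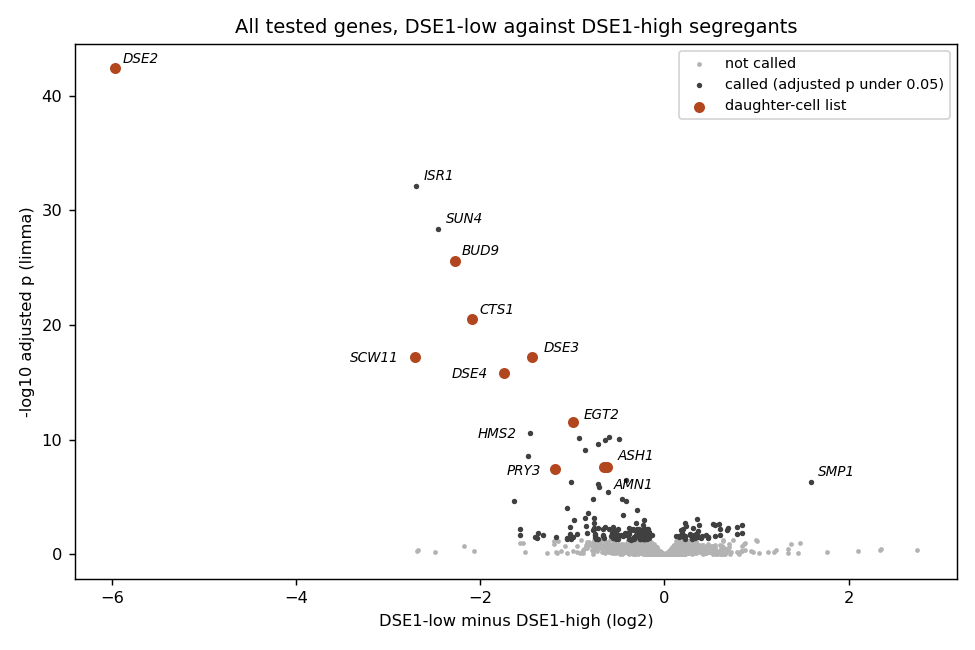
Difference between DSE1-low and DSE1-high segregants (x axis, log2) against the -log10 adjusted p of limma (y axis) for the 6229 tested genes, with the 10 tested daughter-cell genes in colour. DSE2 stands alone at -5.97, ISR1, SUN4, BUD9, SCW11 and CTS1 lie between -2.71 and -2.09, and SMP1 at 1.59 is the 1 called gene more than 2-fold higher.

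The counts of calls in the cell-cycle and pheromone lists were small, and 3.16% of all tested genes passed. Of 20 M/G1 genes, which peak as cells leave mitosis, 3 fell (15%) and 17 did not pass, with a list median of -0.01. RME1, a repressor of meiosis, fell by 0.86 (limma adjusted p 7.50e-10), NIS1, a bud neck protein gene, by 0.71 (limma adjusted p 1.41e-06) and SIC1, the cyclin-dependent kinase inhibitor, by 0.31 (limma adjusted p 0.00172). RME1 had -0.77, -0.28 and 0.34 as lowest, median and highest level in DSE1-low segregants, against 0.02, 0.56 and 1.04 in DSE1-high segregants, so the groups overlapped at their edges. Of 24 G1/S genes 2 passed (8.33%): the G1 cyclin gene CLN2 fell by 0.52 (limma adjusted p 0.0454) and NRM1, a corepressor of G1/S transcription, was higher by 0.68 (limma adjusted p 0.00740). NRM1 reached -1.13 on SEG14, where the next highest DSE1-low level was -3.47, and its difference was 0.51 without SEG14. Of 13 mitotic exit genes 1 passed (7.69%), the kinase gene DBF2, which fell by 0.22 (limma adjusted p 0.0443), a call that was lost with slide as a block (adjusted p 0.124) and without SEG9 and SEG42 (adjusted p 0.0701).

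Of 22 pheromone-induced genes, PRM5 alone passed (4.55%), higher by 0.23 (limma adjusted p 0.00181), and the list's median was 0.07. Of 8 core histone genes, HTB1 alone passed (12.5%), higher by 0.36 (limma adjusted p 0.00902), with a list median of 0.18. None of 21 septum and cytokinesis genes, 18 G2/M genes, 7 a-specific genes and 10 flocculin and adhesion genes passed in limma. The medians of these 4 lists lay between -0.07 and 0.04.

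Higher levels in the DSE1-low segregants were fewer and smaller. SMP1, which encodes a MADS-box transcription factor, had -2.62, -0.35 and 0.11 as lowest, median and highest level in DSE1-low segregants, against -3.10, -2.19 and -0.34 in DSE1-high segregants. The ranges overlapped widely although the medians lay far apart, and the difference was 1.59 ± 0.21 (SE; limma adjusted p 4.34e-07). Among the other genes with the largest rises, YMR122C was higher by 0.85, YNL034W by 0.84, YBR174C by 0.78, YNL018C by 0.78, YGR190C by 0.69, REC102 by 0.61, API2 by 0.60, GIC1 by 0.59 and TPO3 by 0.55. GIC1 encodes an effector of Cdc42 in polarity (limma adjusted p 0.00221). REC102, a meiotic recombination gene, and TPO3, a polyamine transporter gene, did not pass with slide as a block (adjusted p 0.0566 and 0.122). API2 was well above background on 9 of 16 DSE1-low arrays, and was not called after another background correction. The split of the calls moved with the scaling: 24.9% were higher in DSE1-low segregants with the 75th percentile, 35.1% with quantile scaling and 34.2% with the median. With slide as a block, 226 genes (3.63%) passed, of which 84 (1.35%) were higher and 142 (2.28%) lower.

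Calls were spread over the genome but were denser around AMN1 on chromosome II. Among the 30 tested genes next to AMN1, 15 on each side, 8 passed (26.7%), of which 6 were lower and 2 higher. At 16 to 50 genes from AMN1, 13 of 70 passed (18.6%), at 51 to 100 genes 5 of 100 (5%), and beyond that 1 of 227 (0.441%). These counts pool both sides of AMN1, and the calls were not placed evenly. At 16 to 50 genes, AGP2, HSL7 and MAK5 passed to the left of AMN1 in gene order. More genes passed to the right, from UMP1 to DER1. Of the 5801 tested genes that are not on chromosome II, 169 passed (2.91%). By chromosome, the share was highest on II (28 of 428, 6.54%) and next on VII (25 of 561, 4.46%).

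RPB5, which encodes a shared subunit of the RNA polymerases, had -2.37, -1.07 and -0.31 as lowest, median and highest level in DSE1-low segregants, against -2.02, 0.15 and 0.62 in DSE1-high segregants. The ranges overlapped, with a difference of -1.06 ± 0.18 (SE; limma adjusted p 9.20e-05). PEX32, a peroxisomal membrane protein gene, had -3.76, -3.26 and -2.66 in DSE1-low segregants, against -3.02, -2.25 and -1.98 in DSE1-high segregants. Its difference was -0.93 ± 0.09 (SE; limma adjusted p 7.67e-11), and 14 of 16 DSE1-low and 25 of 27 DSE1-high segregants lay nearer their own side's parent. TYR1, a tyrosine synthesis gene, had -0.66, -0.35 and 0.53 in DSE1-low segregants, against 0.23, 0.45 and 0.80 in DSE1-high segregants. It fell by 0.72 (limma adjusted p 2.48e-10), with 14 of 16 and 27 of 27 segregants on their own side.

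IFA38, next to AMN1 and needed for very long chain fatty acids, had 0.16, 0.39 and 0.69 in DSE1-low segregants, against 0.67, 0.94 and 1.14 in DSE1-high segregants. Its groups touched only at the edge, with a difference of -0.49 ± 0.05 (SE; limma adjusted p 8.23e-11) and 15 of 16 and 26 of 27 segregants on their own side. EXO5, a mitochondrial exonuclease gene, fell by 0.61 (limma adjusted p 3.29e-06). TBS1 fell by 0.27 (limma adjusted p 0.0454), a call that quantile scaling removed (adjusted p 0.132). UBS1 was higher by 0.18 (limma adjusted p 0.00711) and YSW1 by 0.55 (limma adjusted p 0.00245). SMP1, PCH2 and YBR197C also lie on chromosome II, all to the right of AMN1 in gene order, at 25, 29 and 40 genes. The strains' genotypes at these genes were not analysed here.

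**Figure D3:**
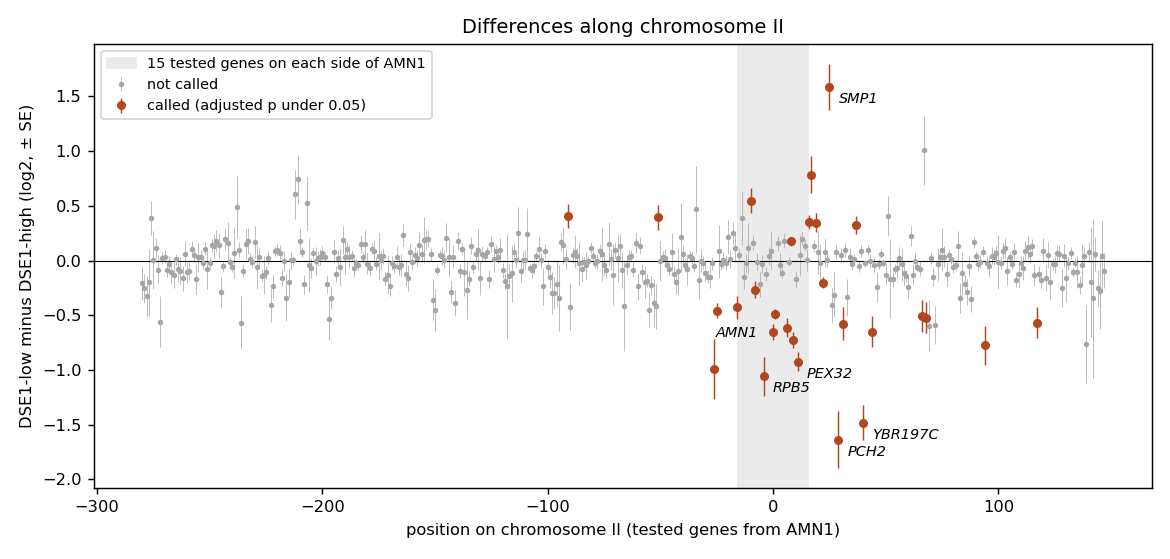
Difference between DSE1-low and DSE1-high segregants (log2, bars are SE) for each tested gene of chromosome II, in gene order counted from AMN1. Called genes are in colour; 8 of the 30 genes in the shaded stretch were called, and 1 of the 227 genes beyond 100 genes from AMN1.

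The treated parents mostly differed in the same direction as the segregant groups. Treated HS959 minus treated S96 had the sign of the segregant difference for 147 of 197 called genes (74.6%), against 50.8% of all tested genes. In untreated parents it was 144 of 197 (73.1%), against 50.3%. Of the 27 genes called with at least a 2-fold difference, 23 had the same sign in the treated and 24 in the untreated parents. The treated parents had 1 array each and chose the groups through DSE1, and the HS959 minus S96 difference has no replicate check.

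Without alpha factor the parents already stood apart for most of the daughter-cell genes. DSE1 had levels of -3.75 in untreated HS959 and 1.00 in untreated S96, a difference of -4.75, and DSE2 had -2.95 in HS959 and 2.08 in S96. SCW11 had -3.46 in untreated HS959 and 0.06 in untreated S96, and CTS1 had -0.27 and 2.55 in these strains. ASH1 was nearly equal, at -0.11 in both. HS959 was thus the lower parent for 9 of the 10 tested daughter-cell genes without alpha factor, and ASH1 differed by 0.01.

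The change with alpha factor was not alike across the genes. SCW11 was higher in treated than in untreated arrays by 1.68 in HS959, 1.5 in S96 and 1.66 in SEG8. AMN1 was likewise higher by 1.38 in HS959, 1.3 in S96 and 1.08 in SEG8. DSE1 changed by -2.0 with alpha factor in HS959, while it was higher by 0.75 in S96 and by 1.06 in SEG8. SUN4 changed by -1.40 in HS959, -0.01 in S96 and 0.23 in SEG8. BUD9 changed by -1.55 in HS959, -0.28 in S96 and -0.02 in SEG8. These are single arrays and carry no test.

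**Figure D4:**
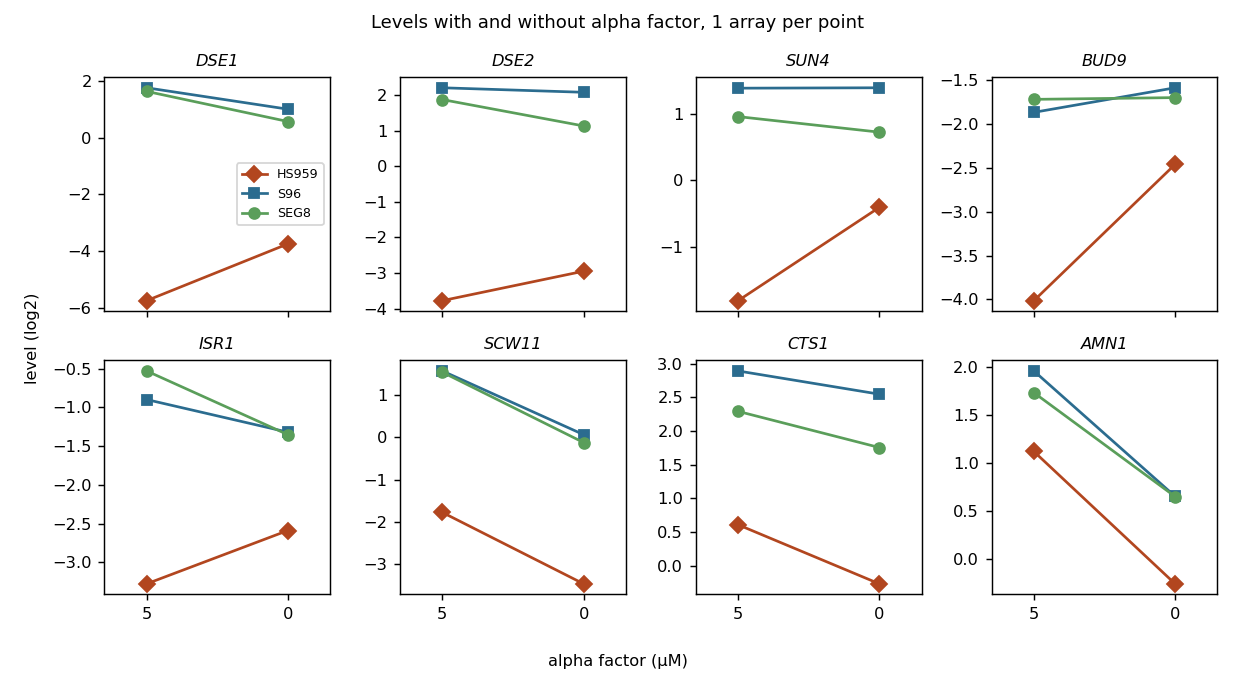
Levels (log2) of 8 genes in HS959, S96 and SEG8 at 5 µM (left) and 0 µM (right) alpha factor, 1 array per point. SCW11, CTS1 and AMN1 were higher with alpha factor in all 3 strains, while DSE1, DSE2, SUN4, BUD9 and ISR1 were lower in HS959 with alpha factor.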

How the data were processed

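Cy3-labelled RNA was hybridised to 1-colour Agilent arrays, 1 sample per array. The deposited scanner files hold intensity per spot, background-subtracted and detrended by Agilent Feature Extraction 10.5.1.1, per the file headers, whereas the submitters' processing notes name version 9.1. The authors' series matrix held the same intensity in 626304 of 626304 cells. Each array had 12512 gene spots, 2 for each of 6256 genes. Outlier spots (0 to 97 per array) and controls were left out, and median intensity ran from 9804 to 23353. The number of arrays limits the precision.

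The log2 of the deposited intensity minus the array's 75th percentile was averaged over spots. Genes well above background on at least 22 of 43 segregant arrays were tested, without DSE1 (26 genes removed by the filter). limma 3.58.1 in R 4.3.3 (lmFit and eBayes, two-sided, 41 residual and 2.18 prior degrees of freedom) was used with Benjamini-Hochberg adjustment. On simulated data 41 of 50 genes changed by 0.5 and 48 of 50 changed by 1 were recovered, and 9 of 6029 unchanged genes were called. The simulated noise was independent between genes and arrays, with no slide effects or chromosome shifts. These shares therefore cannot give the rate of false calls on the real arrays. Correlations with DSE1 within a group are given with no test, unlike the permutation test first planned, because DSE1 made the groups. Genes were identified by the array's systematic names, of which 5756 of 6256 matched the reference table that gave the gene symbols.

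The members and gene lists were chosen with earlier results of these data known. Genes named are all members of the daughter-cell and RAM network lists (1 member is not reported here), the 12 largest called differences each way, the 10 smallest p, up to 10 called neighbours of AMN1 and up to 4 called members of each other list. Alternatives were quantile and median scaling, normexp background correction on the median spot signal (no mean signal column was used), the series matrix, other filters, slide as a block, single slides, a split by DSE2, segregants near the dividing line left out, another variance model, and left-out arrays.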

Additional observations from a re-analysis of the deposited data

Results flagged for a closer look

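Changes with alpha factor were compared for 13 genes: DSE1, the 10 tested daughter-cell genes, SUN4 and ISR1. For 5 of them the change with alpha factor (treated minus untreated, log2) ran one way in HS959 and the opposite way in both S96 and SEG8. The difference between strains was not tested, because each strain had 1 array per condition. DSE1 changed by -2.0 in HS959, against 0.75 in S96 and 1.06 in SEG8. DSE2 changed by -0.83 in HS959, against 0.13 in S96 and 0.74 in SEG8. ISR1 changed by -0.69 in HS959, against 0.42 in S96 and 0.82 in SEG8. ASH1 changed by -0.41 in HS959, against 0.50 in S96 and 0.41 in SEG8. DSE4 changed by -0.19 in HS959, against 0.10 in S96 and 0.66 in SEG8. Among the 41 other named genes, 7 had the same pattern of signs (RME1, SIC1, PCH2, FRE7, PEX32, IFA38 and TBS1). The share of all genes with this pattern is not given here, so the 5 of 13 have no base rate beside them.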

How the results depend on the processing

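All 197 calls kept their sign in each fit over more than 1 slide in which the gene was tested. The split by DSE2 and the removal of segregants near the dividing line left both groups unchanged. Those fits therefore repeat the main fit and add no support. The series matrix held the same intensities, so its fit differed only in keeping outlier spots. The count of calls lay between 163 with normexp and 253 without SEG9 and SEG42, and 148 of the 197 were also called with slide as a block. That block gave 84 higher calls in place of 49. Without slide 3 or without SEG45, both chosen after seeing the data, 181 and 235 genes were called. Single slides hold 4 to 8 arrays: slides 1, 3, 5 and 6 gave 5, 14, 8 and 17 calls, of which 2, 12, 8 and 13 were lower and 3, 2, 0 and 4 higher. The daughter-cell list then had 1, 4, 5 and 5 calls and the stretch around AMN1 0, 2, 0 and 2. PRM5 turned to -0.068 within slide 1 and YNL034W to -0.18 within slide 3. The correlations with DSE1 in the DSE1-high group were 0.54 for CTS1 and 0.39 for DSE2 without the 2 segregants farthest from the median. YBR174C, YGR190C, HTB1, REC102, TPO3 and DBF2 did not pass without slide 3, and CLN2, YNL018C, API2, TBS1 and DBF2 did not pass with normexp. TPO3 also missed the threshold without SEG9 and SEG42, and TBS1 without SEG14. The cause of these changes was not tested. No paired analysis was possible because each segregant is a different strain on 1 array and falls in only 1 group.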

Other observations

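Of the 22 genes next to the 11 daughter-cell genes, DSE1 included, 4 passed in limma (18.2%, against 3.16% of all tested genes), and 7 of the 11 had no called neighbour. These neighbours were examined after their values were seen. MDJ2, which adjoins EGT2, had -4.74 ± 0.27 (SD, n = 16) in DSE1-low and -3.96 ± 0.44 (SD, n = 27) in DSE1-high segregants, a difference of -0.78 (limma adjusted p 1.45e-05). YOR263C, which adjoins DSE3, differed by -0.56 (limma adjusted p 0.0344), and IFA38, next to AMN1, is described above. NNT1, which adjoins CTS1 on chromosome XII, ran the other way and was higher in DSE1-low segregants by 0.30 (limma adjusted p 0.0357). Genes of that chromosome were shifted upward in SEG9 and SEG42, both DSE1-low. On it 9 of 14 called genes were higher in DSE1-low segregants, against 49 of 197 over the genome. The NNT1 difference without SEG9 and SEG42 is not given here. COG4, which adjoins ISR1 and no listed gene, had -0.80 ± 0.13 (SD, n = 16) in DSE1-low and -0.19 ± 0.20 (SD, n = 27) in DSE1-high segregants, a difference of -0.60 (limma adjusted p 6.09e-11).

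YER152C, which like ISR1 is in none of the lists and had groups that did not overlap, had -1.05 ± 0.22 in DSE1-low and -0.41 ± 0.18 in DSE1-high segregants, a difference of -0.64 (limma adjusted p 9.85e-11). GAT1, which encodes a GATA transcription factor of nitrogen metabolism, had -3.28 ± 0.55 in DSE1-low and -2.26 ± 0.81 in DSE1-high segregants, a difference of -1.03 (limma adjusted p 0.00425). It too was chosen after its values were seen.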
